A study of Mus musculus with 19 samples.

Results

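The genes for receptors of glutamate and GABA were followed in the cerebral cortex of mouse embryos in which *Ino80*, alone or together with *Trp53*, was deleted in cortical progenitors. Members were all protein-coding genes with a GENCODE symbol of the AMPA (*Gria*), kainate (*Grik*), NMDA (*Grin*), metabotropic glutamate (*Grm*), GABA-A (*Gabr*) or GABA-B (*Gabbr*) receptor families, which gave 45 of the 51912 genes in the count tables, 24 for glutamate and 21 for GABA. RNA of cerebral cortex at E13.5 was counted by Click-seq, a total-RNA method that tags each cDNA molecule so that copies can be removed, with 1 library per embryo. The groups were control embryos (ctrl, n = 7), *Ino80* conditional mutants made with *Emx1*-Cre (cKO, n = 5), and *Ino80*;*Trp53* conditional double mutants made with the same Cre (dKO, n = 7), all on a mixed C57BL/6 and 129 background. The alleles carried by the controls were not given in the labels. *Emx1*-Cre is active in progenitors of the dorsal telencephalon, so cells that enter the cortex from elsewhere, among them GABAergic interneurons and microglia, are outside its lineage. The same tissue from each group was compared 3 ways, cKO against ctrl, dKO against ctrl and dKO against cKO. The first 2 of these comparisons share the ctrl embryos.

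Glutamate and GABA are the main fast transmitters of the brain. AMPA, kainate and NMDA receptors are cation channels and GABA-A receptors chloride channels, each built of several subunits, and the metabotropic glutamate and GABA-B receptors signal through G proteins. In the embryonic cortex these receptors are present before most synapses form, GABA can depolarize immature cells, and both transmitters can affect progenitor division and the migration of neurons. Many of the genes are long, and most GABA-A subunit genes lie in chromosomal clusters.

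Libraries held between 820915 and 8095810 counts on genes (median 2952788), so 3 counts, taken as the limit of detection, were worth 0.379 to 3.54 CPM (counts relative to the library's total, scaled by TMM factors over the 19 libraries). The counts covered introns as well as exons, since of 4099 genes nested in a longer gene on the same strand 0.366% held a count, against 57.1% of 4272 nested on the opposite strand. A value thus reflects RNA from the whole gene body. Loss of the floxed *Ino80* exons could therefore not be read from the gene total, which was 121 ± 7.23 CPM in ctrl, 166 ± 17.7 in cKO and 186 ± 14.9 in dKO (mean ± SD). The 30 p53 targets listed summed to 984 to 1197 CPM in cKO, 634 to 711 in ctrl and 562 to 699.6 in dKO, and 15 of 26 tested were higher in cKO than in ctrl at a false discovery rate (FDR) of 0.001 while 1 of 16 was lower in dKO at 0.05. Markers of cortical projection neurons, the labelled tissue's own cells, summed to between 2707 and 5546 CPM per library.

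In ctrl cortex the receptor genes covered a wide range of levels. Per kb of gene body, *Gria2*, the AMPA subunit that limits calcium entry, stood highest at 5.20 ± 0.819 CPM (mean ± SD, n = 7), with *Gabbr1*, the ligand-binding GABA-B subunit, at 4.37 ± 0.562. The kainate subunit genes *Grik2* and *Grik5* followed at 2.66 ± 0.206 and 2.34 ± 0.325, and *Gabra2*, a GABA-A alpha subunit gene of the embryonic brain, at 0.713 ± 0.167. Inside the first and the second of these pairs the ranges of mean ± SD overlapped. Per kb of exon, *Grik2* came first at 139.5 ± 10.8 CPM, *Gria2* next at 40.6 ± 6.39, with *Grik5* at 28.3 ± 3.93 and *Gria1* at 26.04 ± 10.3. *Grik2* spans 693934 bases with 13246 in exons, and its first place held only on that scale.

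**Figure D1:**
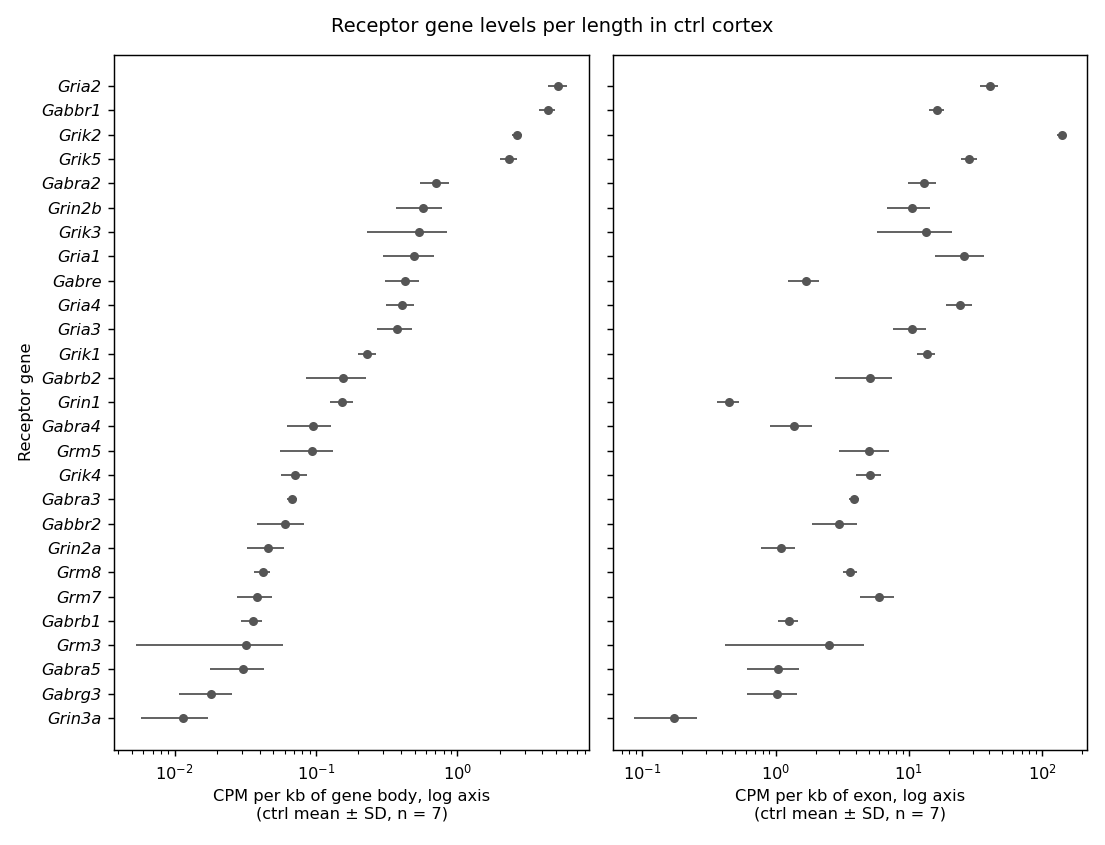
Levels of 27 of the receptor genes tested in at least 1 comparison, in ctrl cortex (points, mean; bars, SD; n = 7), as CPM per kb of gene body on the left and per kb of exon on the right, both on log axes. *Gria2*, *Gabbr1*, *Grik2* and *Grik5* lead on the left, and *Grik2* leads on the right.

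Of the 45 genes, 30 passed the filter on low counts in cKO against ctrl, 28 in dKO against ctrl and 30 in dKO against cKO. *Gabra5* and *Grin3a* were tested where cKO took part and not in dKO against ctrl. They passed the filter through the cKO embryos, the group where they were highest, and are among the genes called in both comparisons with cKO. The other 15 held between 0 and 149 counts in all 19 libraries together and were tested nowhere. Among them were *Gabra6*, *Gabrd*, *Gabrg1*, *Gabrp*, *Gabrq*, the 3 rho subunit genes *Gabrr1*, *Gabrr2* and *Gabrr3*, the NMDA subunit genes *Grin2c*, *Grin2d* and *Grin3b*, and the metabotropic genes *Grm2*, *Grm4* and *Grm6*. *Gabra6*, a gene of cerebellar granule cells, had no count in any library.

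In cKO cortex 15 of the 30 receptor genes tested were higher than in ctrl at an FDR of 0.05, across AMPA, kainate, NMDA, metabotropic and GABA-A classes, by 1.46-fold (*Grm8*) to 2.57-fold (*Grin3a*). The 15 include *Grin3a* and *Gabra5*, which passed the filter through the cKO embryos. In bulk tissue more RNA per cell and more cells of a type cannot be told apart. At an FDR of 0.001, 2 of 30 were called higher, among them *Gabrb1*, against 1.06% of the 11660 genes tested, and 0 were called lower, against 2.32%. At 0.05 the 15 of 30 stood against 7.31% of all genes called higher, and 3 were lower (*Grik2*, *Grik5* and *Gabre*), against 9.88%. For the count of 0 lower at 0.001, edgeR's quasi-likelihood test gave 3 at an unadjusted p under 0.05, and the likelihood-ratio test and DESeq2 each called 2 at 0.001. When libraries were scaled by total counts, the split over all genes was 160 higher and 198 lower, against 124 and 270 with TMM factors, and 5 receptor genes were higher. The median log2 fold change was 0.56 over the 30 receptor genes and 0.02 over all genes, and 27 of the 30 lay above 0. In 5 receptor genes all cKO embryos lay above all ctrl embryos, against 2.68% of all genes, and in 1, *Gabre*, all lay below, against 5.49%.

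In dKO cortex 9 of 28 receptor genes were lower than in ctrl at 0.05, and 22 of 30 were lower than in cKO. None of 28 receptor genes was called higher than in ctrl at 0.001 (background 0.246%) or at 0.05 (background 5.45%) by edgeR, the likelihood-ratio test or DESeq2, and 1 was higher at an unadjusted p under 0.05 in each of these. *Grik2* was called lower at 0.001, 1 of 28 against 2.34% of the 11381 genes tested, and 9 of 28 were lower at 0.05, against 10%. The median log2 fold change was -0.23, against 0.01 over all genes. With total counts the split over all genes was 80 higher and 118 lower, against 28 and 266, and the median of all genes moved to 0.10. All dKO embryos lay below all ctrl embryos in 1 receptor gene, *Grik2* (background 3.08%), and above them in 0 (background 1.15%). Compared directly, 22 of 30 receptor genes were lower in dKO than in cKO at 0.05, against 9.42% of the 11746 genes tested, and 1, *Gabre*, was higher, against 5.59%. With total counts these were 22 and 2, and the split over all genes was 1064 higher and 942 lower, against 657 and 1106. The groups did not overlap in 15 of those that were lower (background 4.5%) and in *Gabre*, the 1 that was higher (background 2.26%). Both the 22 and the 15 include *Grin3a* and *Gabra5*, which passed the filter through the cKO embryos.

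**Figure D2:**
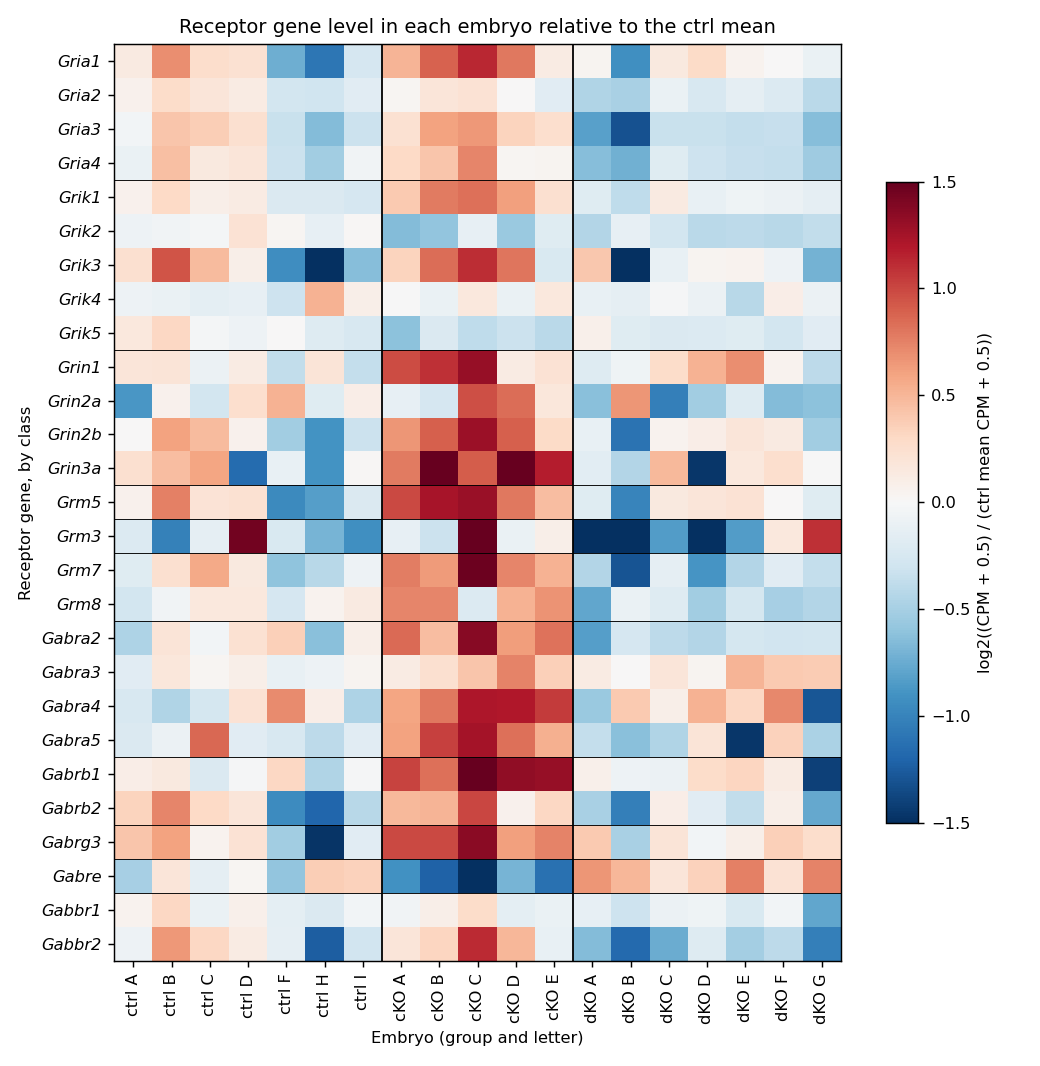
Level of 27 tested receptor genes (rows, by class) in each embryo (columns), as log2 of CPM plus 0.5 over the ctrl mean plus 0.5, from blue (lower) to red (higher), cut at 1.5 either way. The cKO columns are red in most rows and blue in *Grik2*, *Grik5* and *Gabre*, while ctrl H and dKO B are blue in many rows.

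Calls at 0.05 were recomputed with each embryo left out in turn. In cKO against ctrl 12 of the 15 higher and all 3 lower calls held in each of the 12 fits, the exceptions being *Gria1*, *Grm8* and *Gabra5*. In dKO against ctrl 4 of 9 held in each of the 14 fits, among them *Gria3*, *Gria4* and *Grik2*. Between the mutants 19 of 22 lower calls and that of *Gabre* did, the exceptions being *Grik3*, *Grin1* and *Gabra4*. At 0.001, the 2 higher calls in cKO became 4 without ctrl B or ctrl F, 3 without ctrl H, cKO C or cKO E, and 1 without ctrl A, D or I or cKO A or D.

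**Figure D3:**
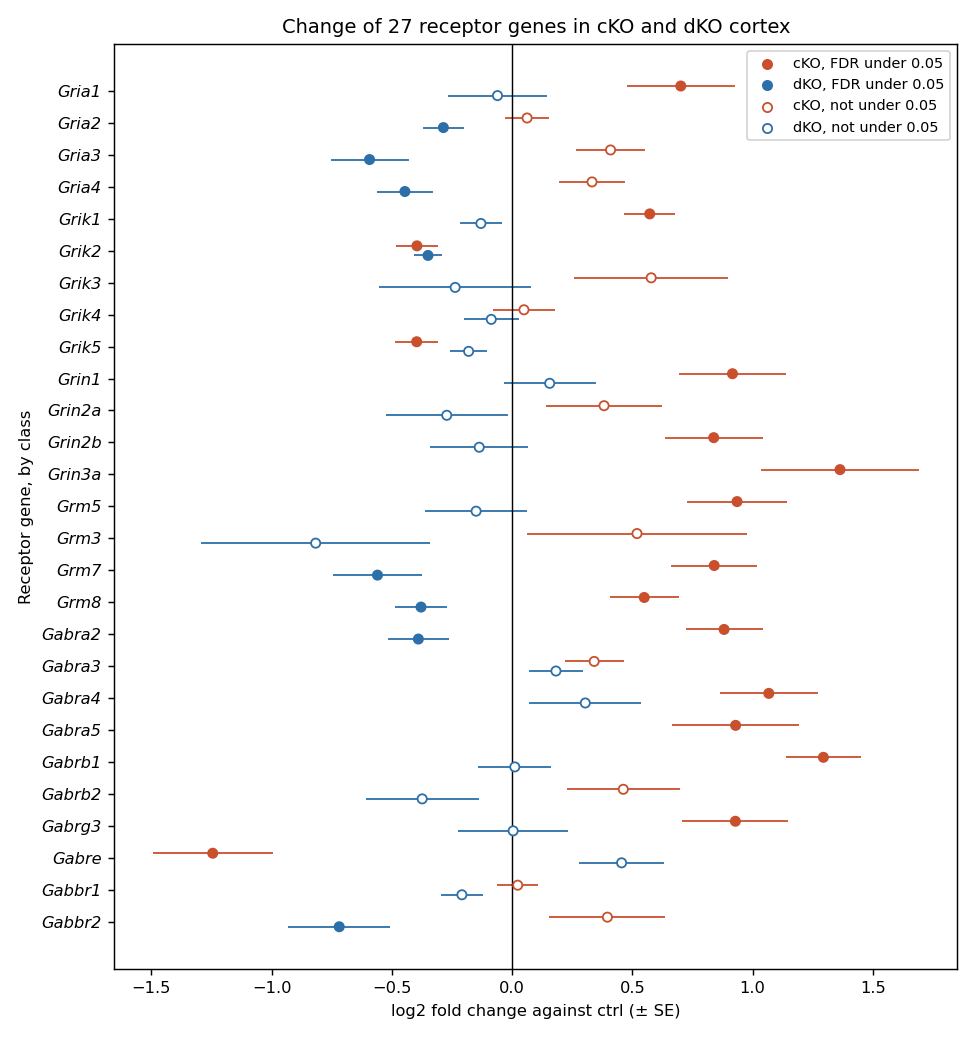
Log2 fold change against ctrl (points; bars, SE) of 27 tested receptor genes in cKO and in dKO, with filled points for an FDR under 0.05. In cKO 13 filled points lie right of 0 and 3 left of it, and in dKO 8 lie left of 0 and none right of it.

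Many receptor genes are long. Of the 30 tested in cKO, 24 exceed 100 kb. In cKO, 18.0% of the 2040 protein-coding genes of at least 100 kb were higher at 0.05 and 17.4% were lower, with a median log2 fold change of 0.04, against 0.58 for the 24 receptor genes of that length. Of the 2002 long genes tested in dKO against ctrl, 24.9% were lower and 3.4% higher, with a median of -0.11, against -0.28 for the 22 long receptor genes. The share of receptor genes lower in dKO at 0.05 was 32.1%. In dKO against cKO, 28.8% of 2052 long genes were lower, against 22 of 30 receptor genes.

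The AMPA receptor carries most fast excitatory transmission, and its 4 subunit genes were all tested. *Gria1* stood at 225, 290.2, 345, 272 and 171 CPM in cKO A to E, against 73.7 to 255 (median 173) in ctrl and 83.2 to 192 (median 162) in dKO. The cKO embryos overlapped the upper ctrl embryos, and the mean was 1.63-fold that of ctrl (log2 fold change 0.70 ± 0.22, SE; adjusted p = 0.0391), while dKO was lower than cKO (-0.76 ± 0.17, adjusted p = 0.00444) and at -0.06 ± 0.21 against ctrl (adjusted p = 0.89). The cKO call was lost without ctrl A, F or I or without cKO A, B, C or D, with an adjusted p of 0.0563 to 0.13. *Gria2* differed little between cKO, at 643, 713, 731, 635 and 559 CPM, and ctrl, at 512 to 761 (median 661) (0.06 ± 0.09, adjusted p = 0.716), and was lower in dKO, at 451 to 589.6 (median 535) (-0.29 ± 0.09 against ctrl, adjusted p = 0.0288; -0.34 ± 0.08 against cKO, adjusted p = 0.00632). The call in dKO against ctrl was lost without ctrl A, B, C or D or dKO A, B or G, at log2 fold changes of -0.28 to -0.24, and with total counts (-0.19, adjusted p = 0.0827). *Gria3*, on the X chromosome, was at 122, 157, 163, 131 and 124 CPM in cKO, 65.6 to 138 (median 100.5) in ctrl and 41.5 to 82.1 (median 81.0) in dKO, so that every dKO embryo lay below every cKO embryo (-0.997 ± 0.14, adjusted p = 6.06e-05). It was lower in dKO than in ctrl (-0.59 ± 0.16, adjusted p = 0.0181). *Gria4* showed the same order, at 187, 205, 255, 156 and 157 CPM in cKO, 107 to 209 (median 147) in ctrl and 92.8 to 134 (median 119) in dKO, again with no overlap between dKO and cKO (-0.77 ± 0.11, adjusted p = 7.36e-05) and a lower level in dKO than in ctrl (-0.45 ± 0.12, adjusted p = 0.0127). For *Gria3* and *Gria4* the difference of cKO from ctrl did not pass the test (0.41 ± 0.14, adjusted p = 0.0612, and 0.33 ± 0.14, adjusted p = 0.109).

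The kainate subunit genes split. *Grik2*, the receptor gene with the most reads, was at 1702 to 2141 (median 1804) CPM in ctrl, 1181, 1229, 1703, 1259.8 and 1625 in cKO and 1360.4 to 1694 (median 1403) in dKO. All 7 dKO embryos lay below all 7 ctrl embryos (-0.35 ± 0.06, adjusted p = 0.000434), and 4 of 5 cKO embryos did (-0.40 ± 0.09, adjusted p = 0.00527), cKO C being the exception by a narrow margin at 1703 against 1702 CPM in the lowest ctrl embryo. The difference between the 2 mutants did not pass the test (0.05 ± 0.09, adjusted p = 0.759). At 0.001 the dKO call was lost in 18 of 32 alternatives, among them those without ctrl C, D, F or I or dKO A, C, D, E, F or G. With litter as a block, *Grik2* in dKO was at -0.21 (adjusted p = 0.185). Within batch 1 and batch 2 it was at -0.33 and -0.39. *Grik5*, a kainate subunit gene whose product needs a partner subunit to form a channel, was lower in cKO. It was at 112 ± 11.1 CPM in cKO against 146 ± 20.3 in ctrl (mean ± SD, log2 fold change -0.40 ± 0.09, SE, adjusted p = 0.00557). In dKO it stood at 131 ± 10.7 (-0.18 ± 0.08, adjusted p = 0.127). In cKO it was at -0.26 with litter as a block (adjusted p = 0.0328), and in batch 2 alone at -0.24, where the call was lost (adjusted p = 0.295). *Grik1* moved the other way in cKO, with 120.2, 157, 162, 140.4 and 108 CPM against 76.8 to 113 (median 95.3) in ctrl (0.57 ± 0.11, adjusted p = 0.00126), and only cKO E fell inside the ctrl range. In dKO it was at 70.1 to 101 (median 84.6), below every cKO embryo (-0.70 ± 0.10, adjusted p = 0.000111). *Grik3* varied widely among ctrl embryos, from 32.1 CPM in ctrl H to 231 in ctrl B (median 127), and was at 151, 214, 257, 210.0 and 102 in cKO and 38.0 to 158 (median 114) in dKO. Its difference between cKO and ctrl did not pass the test (0.58 ± 0.32, adjusted p = 0.242), and that between dKO and cKO did (-0.82 ± 0.25, adjusted p = 0.0339), though not without cKO B, C or D or dKO G (adjusted p 0.0583 to 0.129), nor without the 3 libraries of lowest depth. *Grik4* was at 30.4 ± 6.39, 31.0 ± 2.79 and 28.3 ± 2.97 CPM in ctrl, cKO and dKO, and passed no test.

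NMDA receptors pair the obligatory subunit encoded by *Grin1* with *Grin2* or *Grin3* subunits, and *Grin2b* is the main *Grin2* gene of the embryonic forebrain. *Grin2b* was at 418, 493.5, 643, 492 and 323 CPM in cKO, 142 to 402 (median 266) in ctrl and 122 to 299.8 (median 274) in dKO. It was 1.79-fold higher in cKO than in ctrl (0.84 ± 0.20, adjusted p = 0.0088), with cKO E inside the ctrl range, and every dKO embryo lay below every cKO embryo (-0.97 ± 0.18, adjusted p = 0.00109). *Grin1* was low, at 8.99, 9.75, 11.4, 4.72 and 5.08 CPM in cKO, 3.21 to 4.99 (median 4.75) in ctrl and 3.16 to 7.29 (median 4.48) in dKO, and was higher in cKO than in ctrl (0.92 ± 0.22, adjusted p = 0.00907) and lower in dKO than in cKO (-0.75 ± 0.24, adjusted p = 0.037). Its counts were between 3 and 42 per library, and the call between the mutants was lost without cKO A, B or C or dKO A, B, C, F or G (adjusted p 0.0524 to 0.152). *Grin3a*, whose product lowers calcium flux, was at 4.00, 8.89, 4.42, 7.08 and 5.42 CPM in cKO, above all ctrl embryos, at 0.678 to 3.46 (median 2.16), and all dKO embryos, at 0.456 to 3.16 (median 2.11) (1.36 ± 0.33, adjusted p = 0.00833 against ctrl; -1.53 ± 0.34, adjusted p = 0.00465 for dKO against cKO). Its counts were between 2 and 31 per library, near the limit of detection in the shallow libraries, and the call in cKO was lost in batch 1 alone (1.19, adjusted p = 0.0664). *Grin2a*, the gene of the mature subunit, was at 19.6 ± 5.69, 26.1 ± 10.3 and 15.5 ± 7.31 CPM in ctrl, cKO and dKO and passed no test.

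Group I metabotropic receptors couple to phospholipase C. *Grm5* was at 103, 122, 127, 89.6 and 71.1 CPM in cKO, 26.3 to 87.4 (median 54.0) in ctrl and 25.8 to 60.0 (median 51.9) in dKO, higher in cKO than in ctrl with only cKO E inside the ctrl range (0.94 ± 0.21, adjusted p = 0.00478) and no overlap between dKO and cKO (-1.09 ± 0.17, adjusted p = 0.000197). 

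Group II and group III genes lower cyclic AMP and often act at presynaptic terminals. *Grm7* was at 60.3, 55.3, 98.3, 59.0 and 50.8 CPM in cKO, 23.1 to 52.4 (median 33.5) in ctrl and 14.1 to 32.2 (median 25.9) in dKO, higher in cKO than in ctrl (0.84 ± 0.18, adjusted p = 0.00366) and below every cKO embryo in dKO (-1.40 ± 0.19, adjusted p = 5.96e-05). Compared with ctrl it was lower in dKO (-0.56 ± 0.18, adjusted p = 0.0464), but the call was lost without ctrl A, B, C, D or I or dKO A, B, D, E or G (adjusted p 0.0515 to 0.122) and with total counts (adjusted p = 0.0666) or litter as a block (adjusted p = 0.216), and the value was -0.84 in batch 1 and 0.09 in batch 2. *Grm8* was at 60.3, 60.2, 31.3, 51.9 and 57.9 CPM in cKO, where cKO C stood alone inside the ctrl range, 29.8 to 40.3 (median 37.5) in ctrl and 20.8 to 33.5 (median 26.4) in dKO. It was higher in cKO than in ctrl (0.55 ± 0.14, adjusted p = 0.0129), lower in dKO than in ctrl (-0.38 ± 0.11, adjusted p = 0.0222) and lower in dKO than in cKO (-0.92 ± 0.15, adjusted p = 0.000295). The call in cKO was lost with litter as a block (0.33, adjusted p = 0.161), in batch 1 alone (0.50, adjusted p = 0.0823) and without cKO A (0.48, adjusted p = 0.0526). That in dKO against ctrl was lost with litter as a block (-0.13, adjusted p = 0.695), with total counts (-0.29, adjusted p = 0.0676), and without ctrl C or D or dKO D or F (adjusted p 0.0512 to 0.0551). cKO C held the lowest *Grm8* and the highest *Grm7* value of its group. *Grm3* passed no test, with ctrl D at 21.7 and cKO C at 25.8 CPM above the rest of their groups.

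Most GABA-A subunit genes lie in clusters. On chromosome 5, *Gabrg1* (chr5:70751047-70842617), *Gabra2* (chr5:70957597-71095849) and *Gabra4* (chr5:71569749-71658308) lie on the minus strand and *Gabrb1* (chr5:71658113-72149037) on the plus strand (GRCm38). *Gabra4* and *Gabrb1* are arranged head to head, and their first 196 annotated bases overlap on opposite strands. *Gabrg3* (chr7:56716465-57387188) and *Gabra5* (chr7:57407672-57510059) lie on the minus strand of chromosome 7, and *Gabrb2* (chr11:42419757-42629028) lies on chromosome 11.

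*Gabra2*, *Gabra4* and *Gabrb1* on chromosome 5 and *Gabrg3* and *Gabra5* on chromosome 7 were each higher in cKO than in ctrl at 0.05 and lower in dKO than in cKO. On chromosome 5, *Gabrb1* led the receptor genes by adjusted p, at 35.6, 31.3, 60.0, 44.8 and 44.0 CPM in cKO A to E, 12.7 to 21.8 (median 17.3) in ctrl and 6.33 to 21.9 (median 18.5) in dKO. The cKO embryos lay above both other groups, with cKO at 2.45-fold the ctrl level (1.29 ± 0.16, adjusted p = 2.86e-05), dKO lower than cKO (-1.27 ± 0.17, adjusted p = 5.52e-05) and dKO at 0.01 ± 0.15 against ctrl (adjusted p = 0.978). The difference from ctrl was 1.24 within batch 1 and 1.38 within batch 2. Its partner *Gabra4* was at 13.0, 14.9, 20.3, 20.1 and 18.0 CPM in cKO, 5.95 to 14.1 (median 7.05) in ctrl and 3.16 to 14.2 (median 10.5) in dKO, higher in cKO than in ctrl (1.07 ± 0.20, adjusted p = 0.00158) and lower in dKO than in cKO (-0.74 ± 0.21, adjusted p = 0.0204), the latter not without cKO C (-0.67, adjusted p = 0.0773). *Gabra2* was at 178, 136, 254, 152 and 173 CPM in cKO, above every ctrl embryo, at 63.8 to 126 (median 104), and every dKO embryo, at 55.5 to 82.4 (median 80.7). It missed the 0.001 threshold in cKO narrowly (0.88 ± 0.16, adjusted p = 0.00107), held the smallest adjusted p of the receptor genes in dKO against cKO (-1.26 ± 0.12, adjusted p = 1.54e-06), and was also lower in dKO than in ctrl (-0.39 ± 0.13, adjusted p = 0.0442). That last call held without ctrl A or ctrl H and was lost without any other single embryo (adjusted p 0.0515 to 0.0959), with total counts (-0.29, adjusted p = 0.104) and with litter as a block (-0.36, adjusted p = 0.28). *Gabrg1* had 0 to 6 counts per library and was not tested.

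On chromosome 7, *Gabrg3* was at 24.6, 24.7, 32.04, 18.9 and 20.7 CPM in cKO, 4.07 to 18.7 (median 12.7) in ctrl and 8.59 to 16.2 (median 14.0) in dKO. All cKO embryos lay above both other groups (0.93 ± 0.22, adjusted p = 0.00755 against ctrl, and -0.93 ± 0.16, adjusted p = 0.000609 for dKO against cKO). Over 29 alternatives the latter change ranged from -1.12 to -0.41, and its call was lost in 1 of them, with an adjusted p of 0.67. *Gabra5*, with 1 to 24 counts per library, was at 4.99, 6.88, 8.10, 5.90 and 4.74 CPM in cKO, 2.26 to 6.05 (median 2.70) in ctrl and 0.810 to 4.11 (median 2.15) in dKO (0.93 ± 0.26, adjusted p = 0.0216 against ctrl; -1.27 ± 0.28, adjusted p = 0.00368 for dKO against cKO). In ctrl the highest value, 6.05 CPM in embryo C, lay inside the cKO range. The call in cKO was lost with litter as a block (0.85, adjusted p = 0.0841), in batch 1 alone (0.90, adjusted p = 0.0874), and without cKO B (0.88, adjusted p = 0.0642) or cKO C (0.81, adjusted p = 0.0824).

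On chromosome 11, *Gabrb2* was at 45.9, 46.5, 65.9, 34.2 and 40.7 CPM in cKO, 14.0 to 54.6 (median 37.0) in ctrl and 15.7 to 35.0 (median 25.1) in dKO. It was lower in dKO than in cKO (-0.84 ± 0.18, adjusted p = 0.00299). Over the alternatives this change ranged from -1.16 to -0.41, with an adjusted p of up to 0.57. Against ctrl it did not pass the test in either mutant (0.46 ± 0.23, adjusted p = 0.199 in cKO, and -0.37 ± 0.23, adjusted p = 0.305 in dKO).

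*Gabre*, the epsilon subunit gene of the X-chromosome cluster (chrX:72255999-72274803, minus strand), was lower in cKO than in ctrl, as *Grik2* and *Grik5* were. It was the only receptor gene called higher in dKO than in cKO. It was at 4.00, 3.15, 2.21, 4.72 and 3.39 CPM in cKO, 5.14 to 10.4 (median 8.14) in ctrl and 9.10 to 13.8 (median 11.4) in dKO, from 4 to 72 counts per library. Every cKO embryo lay below every ctrl and dKO embryo, at 0.422 of the ctrl level (-1.25 ± 0.25, adjusted p = 0.00243), and dKO was 3.27-fold higher than cKO (1.71 ± 0.22, adjusted p = 2.88e-05). Against ctrl, dKO did not pass the test (0.46 ± 0.18, adjusted p = 0.0901), with 4 of 7 dKO embryos above all ctrl embryos. With sex as a term, the difference between dKO and cKO was 1.85 (adjusted p = 1.33e-05). It was 1.75 within batch 1 and 1.496 within batch 2, where the call was lost. Its neighbour *Gabra3* (chrX:72432681-72656848, minus strand) was at 15.3 ± 1.29, 20.2 ± 3.56 and 18.2 ± 2.52 CPM in ctrl, cKO and dKO, and passed no test (0.34 ± 0.12, adjusted p = 0.0672 in cKO against ctrl).

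**Figure D4:**
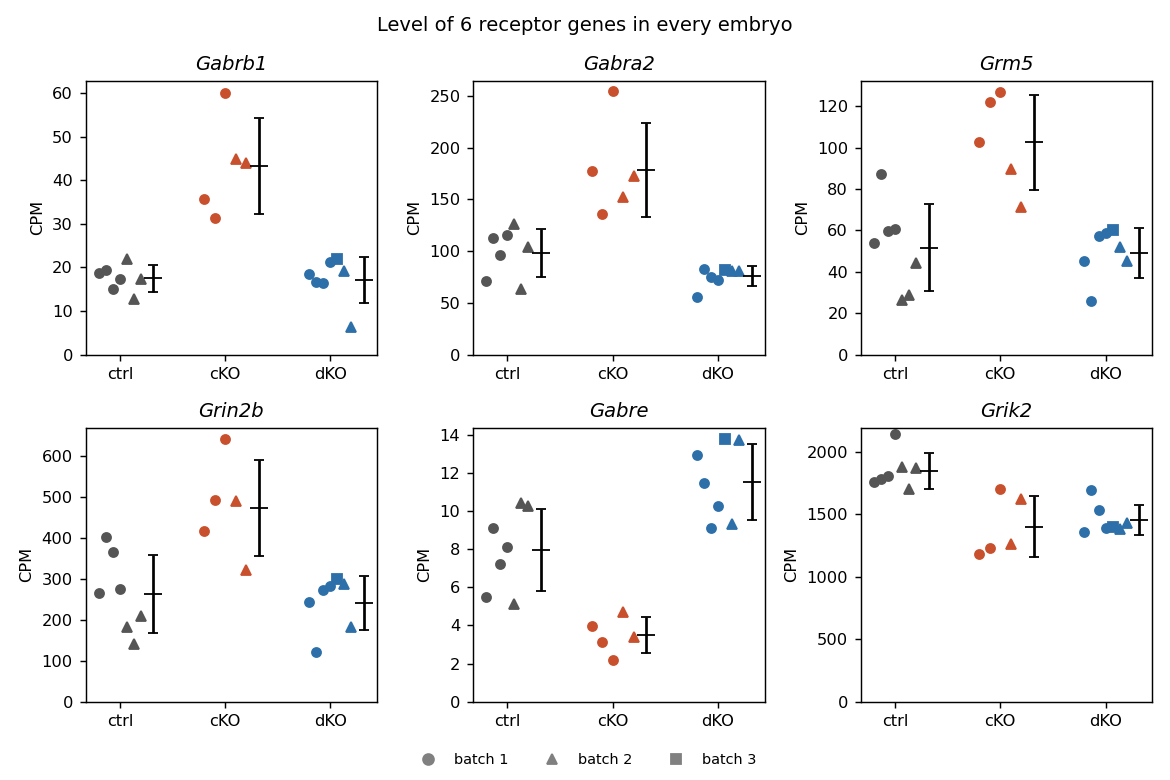
CPM (y axes from 0) of 6 receptor genes in every embryo of the 3 groups (circles, batch 1; triangles, batch 2; squares, batch 3), with the mean and SD of each group as a bar beside the points. *Gabrb1* and *Gabra2* place all 5 cKO embryos above both other groups, *Grm5* and *Grin2b* place all but cKO E above the ctrl embryos, *Gabre* places them below, and *Grik2* is lower in both mutants.

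The GABA-B receptor needs both of its subunits. *Gabbr1* was at 127 ± 16.4, 129 ± 16.1 and 109 ± 17.3 CPM in ctrl, cKO and dKO and passed no test. *Gabbr2*, which carries the receptor to the cell surface, was at 22.6, 24.9, 43.8, 28.3 and 18.3 CPM in cKO, 8.14 to 31.4 (median 18.8) in ctrl and 8.59 to 17.3 (median 12.5) in dKO. It was lower in dKO than in ctrl (-0.72 ± 0.21, adjusted p = 0.0261), though not without ctrl B or C or dKO B or C (adjusted p 0.0597 to 0.0789). In dKO it was also below every cKO embryo (-1.11 ± 0.21, adjusted p = 0.00105). Over the alternatives that change ranged from -1.43 to -0.71, with an adjusted p of up to 0.384. Its difference between cKO and ctrl did not pass the test (0.40 ± 0.24, adjusted p = 0.293).

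Promoter windows of RefSeq (GRCm38.p6), the 250 bases before a transcript start, were found for 32 of the 45 genes, 39 windows in all. Shown are 3 members whose window holds no annotated exon. *Gabra2* and *Gabra5* were both higher in cKO than in ctrl and lower in dKO than in cKO. *Gabra5* passed the filter through the cKO embryos, and its call against ctrl was lost without cKO B or cKO C. *Gria4* was lower in dKO than in ctrl and cKO and was not called in cKO against ctrl. *Gabra2* was called lower in dKO than in ctrl too, but that call was lost in 12 of 14 fits with an embryo left out. Capitals mark matches, on either strand, to the GC box (GGGCGG) and the CCAAT box (CCAAT), which do not overlap in these windows. Sequences run 5′ to 3′ on the gene's strand.
*Gabra2* (chr5:71095850-71096099, minus strand): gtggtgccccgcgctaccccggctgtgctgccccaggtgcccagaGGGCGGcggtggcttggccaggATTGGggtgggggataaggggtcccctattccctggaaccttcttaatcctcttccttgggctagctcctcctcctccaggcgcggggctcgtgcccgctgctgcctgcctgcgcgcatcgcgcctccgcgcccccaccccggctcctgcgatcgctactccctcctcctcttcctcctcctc
*Gabra5* (chr7:57510060-57510309, minus strand): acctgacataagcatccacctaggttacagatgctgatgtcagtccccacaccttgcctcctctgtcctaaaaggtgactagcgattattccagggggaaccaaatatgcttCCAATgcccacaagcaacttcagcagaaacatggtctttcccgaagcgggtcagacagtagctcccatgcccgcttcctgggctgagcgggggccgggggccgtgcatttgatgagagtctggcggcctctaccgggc
*Gria4* (chr9:4796235-4796484, minus strand): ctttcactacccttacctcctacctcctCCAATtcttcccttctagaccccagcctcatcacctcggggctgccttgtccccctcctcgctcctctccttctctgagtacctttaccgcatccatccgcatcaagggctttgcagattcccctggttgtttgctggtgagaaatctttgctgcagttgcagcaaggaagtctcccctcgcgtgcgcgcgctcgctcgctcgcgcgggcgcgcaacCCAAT
These windows hold 18, 9 and 16 CpG dinucleotides, against a median of 9 over the 39 receptor gene windows and 6 over all 32841 windows of that length. A GC box was found in 18 of the 39 (46.2%) and in 32.7% of all windows. A CCAAT box was found in 16 (41.0%) and in 33.9%. The YY1 motif AANATGGC was found in 0 of the 39 and in 3.91% of all windows, a TATA box (TATAAA) in 4 (10.3%) and in 12.4%, and the p53 half-site in 1 (2.56%), that of *Gabra2*, and in 7.13%. These are matches of letters in a short window and say nothing of binding.

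Among the other genes of these pathways, auxiliary subunits of glutamate receptors gave 5 higher and 1 lower of 16 tested in cKO against ctrl at 0.05, with a median log2 fold change of 0.36. The sortilin-related *Sorcs1* (0.76 ± 0.11, adjusted p = 0.000161), *Sorcs2* (0.83 ± 0.10, adjusted p = 2.86e-05) and *Sorcs3* (1.21 ± 0.19, adjusted p = 0.000357) were higher, as were the kainate receptor partner *Neto1* (1.32 ± 0.34, adjusted p = 0.0111) and *Shisa9* (0.95 ± 0.26, adjusted p = 0.0171). The AMPA receptor partner *Cacng7* was lower (-0.44 ± 0.07, adjusted p = 0.000666). Over all genes 7.31% were higher and 9.88% lower in cKO at 0.05. Of the 16 in dKO against ctrl 1, *Shisa6*, was lower (-0.33 ± 0.07, adjusted p = 0.00603), and in dKO against cKO 12 were lower and 1 higher.

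Scaffold genes of the glutamatergic synapse gave 6 higher and 1 lower of 20 tested in cKO, led by *Dlgap1* (1.03 ± 0.16, adjusted p = 0.000334) and *Dlgap2* (0.83 ± 0.18, adjusted p = 0.00391), with a list median of 0.17. In dKO, 1 of 19 was higher than in ctrl and 4 lower, and in dKO against cKO 1 of 20 was higher and 7 lower. Genes for GABA receptor auxiliary subunits and anchoring gave 1 of 14 higher and 2 lower in cKO, 4 of 13 lower in dKO, and 3 of 14 lower in dKO than in cKO. Over all genes, the shares higher and lower at 0.05 were 7.31% and 9.88% in cKO, and 5.45% and 10% in dKO against ctrl. In dKO against cKO they were 5.59% and 9.42%. A single call in a list of 14 to 20 genes lies near these shares. *Gphn*, which encodes the inhibitory synapse scaffold gephyrin, was lower in both mutants, with no overlap with ctrl (-0.50 ± 0.07, adjusted p = 8.4e-05 in cKO; -0.67 ± 0.07, adjusted p = 9.26e-07 in dKO). Of genes for transmitter synthesis and transport, 1 of 16 was higher in cKO, the glial glutamate transporter *Slc1a2* (0.97 ± 0.10, adjusted p = 4.33e-06), and 1 was lower, the glutamine transporter *Slc38a1* (-0.30 ± 0.06, adjusted p = 0.00291), which was also lower in dKO (-0.23 ± 0.05, adjusted p = 0.00729). In dKO against cKO 5 of these were lower and 1 higher. Chloride transporters gave 1 higher of 5 tested in cKO (*Slc12a4*). Delta and glycine receptor genes gave 1 higher of 4 in cKO and 2 lower in dKO (*Glra2*, -0.65 ± 0.17, adjusted p = 0.0159, and *Glrb*, -0.32 ± 0.10, adjusted p = 0.0383).

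Markers of cell types moved with the groups. For comparison, 7.31% of all genes were higher and 9.88% lower in cKO than in ctrl at 0.05. In dKO 10% were lower than in ctrl and 9.42% lower than in cKO. Interneuron-lineage markers summed to 348 to 689 CPM in cKO, 58.8 to 475 in ctrl and 163 to 373 in dKO, and of 6 tested, 2 were higher in cKO than in ctrl and 6 lower in dKO than in cKO at 0.05. None of the 12 was at 0 in any group. Cajal-Retzius markers summed to 882 to 1006 CPM in cKO, 541 to 696 in ctrl and 479 to 671 in dKO, with 6 of 6 tested higher in cKO. Microglial markers summed to 29.5 to 38.3 CPM in cKO, 6 to 16.7 in ctrl and 5.67 to 10.6 in dKO, with 3 of 3 tested higher in cKO. Intermediate progenitor markers were lower in cKO, 3 of 7 tested, as were 5 of 9 apical progenitor markers, with 1 higher. Pan-neuronal markers gave 3 higher and 1 lower of 9 in cKO, and 4 lower of 9 in dKO, while of 10 projection neuron markers 1 was lower in cKO and 3 in dKO. Between the mutants, where most receptor genes were lower in dKO, 6 of 9 pan-neuronal markers were lower in dKO than in cKO (4 at 0.001) with a median of -0.53, as were 6 of 7 Cajal-Retzius markers with a median of -0.80. So were 2 of 2 microglial and 2 of 10 projection neuron markers. The part of these shifts in the receptor results was not tested.

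Hem and choroid plexus markers summed to 61.9 to 194 CPM in cKO, highest in cKO E, and to 26.7 to 54.6 in ctrl and 24.5 to 68.5 in dKO. Of these, 2 of 2 tested were higher in cKO. *Ttr*, the main choroid plexus gene, was at 0 in all cKO libraries. Endothelial and mural markers, at 47.5 to 91.2 CPM in ctrl, 69.1 to 86.9 in cKO and 51.7 to 110 in dKO, and erythroid markers, at 43.6 to 114, 52.5 to 80.9 and 29.5 to 109, overlapped between all groups. Fibroblast and meningeal markers, none of them tested, were at 71.3 CPM in ctrl F, 72.8 in dKO B, 50.1 in dKO C and 35.7 in dKO E, and at most 14.8 elsewhere. *Sox2* and *Tubb3* held no count in any library, so the apical progenitor and pan-neuronal sums lack them. Few genes nested on the same strand held counts, and whether this applies to *Sox2* and *Tubb3* was not tested.

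Single receptor genes followed the interneuron markers to different degrees. In each group *Grik3* and *Grin2b* were lowest in the embryo with the lowest marker sum, as in ctrl H (58.8 CPM of markers, 32.1 of *Grik3* and 142 of *Grin2b*) and dKO B (163 CPM of markers, 38.0 and 122), and highest in cKO C (689 CPM, 257 and 643). This order was not particular to interneuron markers. Pan-neuronal and projection neuron sums were also lowest in ctrl H, cKO E and dKO B within their groups, and cKO C was highest in cKO for both. *Gabrb1* was lowest in ctrl H, cKO B and dKO G. In cKO E, with 348 CPM of markers, it was at 44.0 CPM, and in ctrl B, with 475 CPM of markers, at 19.3. For *Grin2b* the same embryos were the other way round, at 323 and 402 CPM. In these embryos *Gabra2* was at 173 and 113 CPM, and *Gabre* at 3.39 and 9.14.

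**Figure D5:**
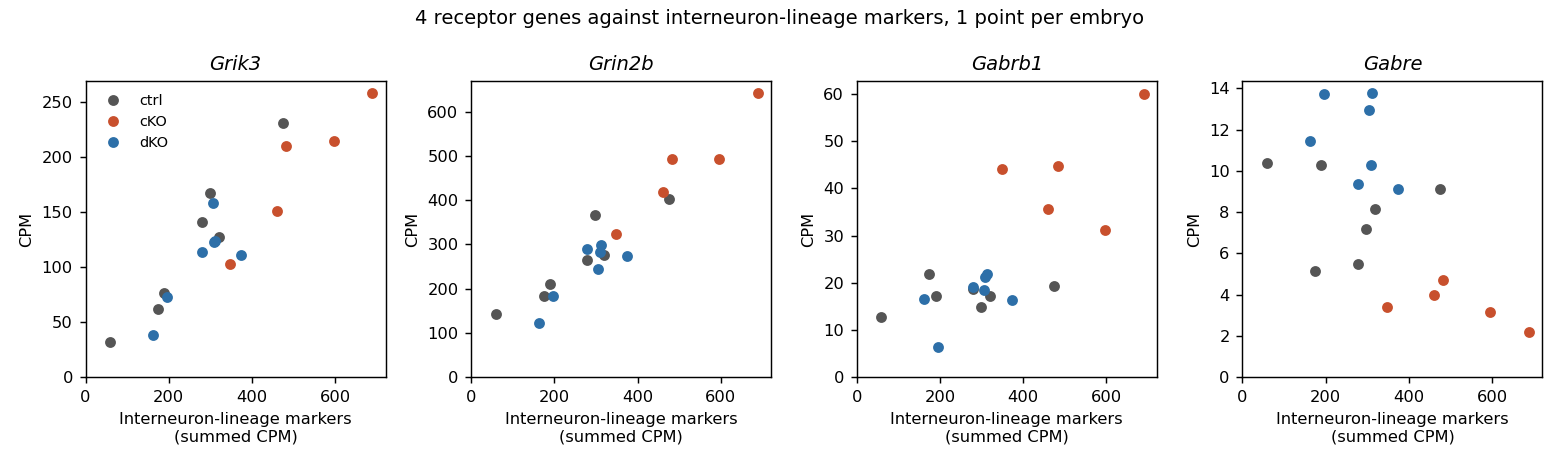
CPM of 4 receptor genes (y axes) against the summed CPM of 12 interneuron-lineage markers (x axes), 1 point per embryo, by group. *Grik3* and *Grin2b* sit higher at higher marker sums, in a band that holds all 3 groups. The 5 cKO embryos lie above all others in *Gabrb1* and below all others in *Gabre*. Of these, cKO B, C and D lie at marker sums over those of any ctrl or dKO embryo.

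Batch, litter and sex were not balanced over the groups. The 7 dKO embryos came from 2 litters, the 7 ctrl embryos from 4 and the 5 cKO embryos from 5. The ctrl embryos of batch 2 (F, H and I) were lower than those of batch 1 (A to D) in several receptor genes, for example at 94.4, 73.7 and 132 CPM against 173 to 255 for *Gria1*. Their pan-neuronal marker sums were 3364 to 3635 against 4425 to 5072 CPM. Within batch 1 alone 3 receptor genes were called higher in cKO at 0.001, among them *Gabrb1* and *Grm5*, beside 85 of all 12012 genes tested. Within batch 2 alone, with 3 ctrl and 2 cKO embryos, *Gabrb1* was at 1.38 (adjusted p = 0.00326). Against ctrl, the dKO median log2 fold change of the receptor genes was -0.42 in batch 1 and -0.03 in batch 2, and that of *Gria3*, for example, was -0.89 and -0.03. In batch 2 alone *Gria2*, *Gria4* and *Gabbr2* stood at -0.07, -0.16 and -0.09. In dKO against cKO 21 of 33 receptor genes were lower within batch 1, beside 807 of all 12198 genes. Within batch 2 these were 10 of 27, beside 280 of 10821. No litter held both cKO and dKO embryos, so litter and genotype cannot be told apart in that comparison. Females were 4 of 5 in cKO and 2 of 7 in dKO. With sex as a term 24 receptor genes were lower and 2 higher in dKO than in cKO, beside 1369 and 1079 of all 11746 genes.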

How the data were processed

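RNA of 19 single-embryo cortices was counted per gene. The deposited counts were whole numbers per gene, which the authors made with bcl2fastq 2.17, cutadapt 1.13, STAR 2.5.2a on GRCm38, UMI-tools 0.5.3 (removal of copies) and HTSeq 0.6.1p1. Alignments outside genes (4.96% to 12.5% per library) stayed out of library sizes. Members and gene lists were chosen with earlier results of these data known. GENCODE M21 gave symbols for 51719 of 51912 identifiers. Few genes nested on the same strand held counts, so counting ran over gene bodies with strand, and levels per kb are given on both lengths.

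Each comparison was a separate edgeR 4.0.16 quasi-likelihood fit (R 4.3.3; filterByExpr with a minimum count of 10, TMM factors, no covariates), with Benjamini-Hochberg adjustment over all genes tested. Calls used an FDR of 0.001 against ctrl, with 0.05 beside it, and 0.05 between mutants. A log2 fold change is printed with its SE, followed by its adjusted p from that test. Members called were to be given by embryo, other members by group mean or range, and genes of other lists only when called. Counts over all members include a few genes whose own results are not reported here. Scripts were tested on simulated data. Counting error alone allows up to 3 counts where none is seen. Within groups, no 2 libraries agreed within sampling noise (lowest chi-square per degree of freedom 1.42). Alternatives were DESeq2 1.42.0, a likelihood-ratio test, other scalings, filters and thresholds, batch, sex, litter and replicate terms, single batches, and embryos or libraries left out. Leaving out libraries by depth or by alignments outside genes was chosen after seeing the data. The labels name each embryo by a letter, and p-values measure the spread between embryos. Litter mates were counted as separate embryos, so the p-values do not measure the spread between litters.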

Additional observations from a re-analysis of the deposited data

Results flagged for a closer look

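Levels differed between cKO and dKO, by the edgeR test of dKO against cKO (FDR under 0.05), in the 20 receptor genes listed here. Each change is given as a log2 fold change of dKO over cKO. Litter and genotype cannot be told apart in this comparison. The calls of *Grik3*, *Grin1* and *Gabra4* were each lost in at least 1 fit with an embryo left out. *Grin3a* and *Gabra5* passed the filter through the cKO embryos. Over all alternatives the adjusted p reached 0.178 for *Gria1*, 0.395 for *Gria2*, 0.0834 for *Grik1* and 0.127 for *Gabre*. It reached 0.57 for *Gabrb2*, 0.67 for *Gabrg3* and 0.384 for *Gabbr2*. Values are given by class. Among ionotropic glutamate receptor genes the change was -0.76 for *Gria1*, -0.34 for *Gria2*, -0.997 for *Gria3*, -0.77 for *Gria4*, -0.70 for *Grik1*, -0.82 for *Grik3*, -0.75 for *Grin1*, -0.97 for *Grin2b* and -1.53 for *Grin3a*. Among metabotropic genes it was -1.09 for *Grm5*, -1.40 for *Grm7* and -0.92 for *Grm8*. Among GABA receptor genes it was -1.26 for *Gabra2*, -0.74 for *Gabra4*, -1.27 for *Gabra5*, -1.27 for *Gabrb1*, -0.84 for *Gabrb2*, -0.92 for *Gabrg3* and -1.11 for *Gabbr2*, and *Gabre* alone had a positive value, 1.71.

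In 14 of 81 groups of values (27 genes in 3 groups) 1 embryo stood apart from the rest of its group by Dixon's criterion, which chance alone meets in about 1 of 20. Among ctrl embryos these were D for *Grik2* (2141 CPM) and *Grm3* (21.7), H for *Grik4* (43.9) and C for *Gabra5* (6.05), all above the rest. Among cKO embryos, C was above the rest for *Grm3* (25.8) and *Grm7* (98.3) and below it for *Grm8* (31.3). Among dKO embryos, B was below the rest for *Gria1* (83.2) and *Grm5* (25.8) and above it for *Grin2a* (31.3), G was below it for *Gabrb1* (6.33) and *Gabbr1* (73.8), A was below it for *Gabra2* (55.5) and above it for *Grik5* (154).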

How the results depend on the processing

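In cKO against ctrl the 2 receptor genes higher at 0.001 became 11 (and 2 lower) with a likelihood-ratio test, 7 (and 2 lower) with DESeq2, 5 with total counts, 4 with upper-quartile factors, 10 with all genes that had a count, 4 with 10 counts in every library, 12 (and 3 lower) at an FDR of 0.01, 15 (and 3 lower) at 0.05, 10 with batch and 7 with sex as a term, 0 in batch 2 alone and 1 without cKO D, the library of lowest depth, and 1 was lower in a fit over all libraries. In dKO against ctrl the 1 lower gene, *Grik2*, became 0 with total counts, litter as a block, a fit over all libraries, batch 1 or batch 2 alone, or without dKO E and G, the libraries of lowest depth in this comparison, 2 with sex as a term or at 0.01, and 9 at 0.05. In dKO against cKO the 1 higher gene became 2 with total counts or sex as a term and 0 in batch 2 alone. With 10 counts in every library *Gabre*, at 4 to 72 counts per library, was not tested. Of the 21 tested there, 0 were higher and 15 lower. The 22 lower became 10 in batch 2 alone and 12 at 0.001. Calls over all genes went from 657 higher and 1106 lower to 25 and 280 in batch 2 alone. They were 45 and 323 at 0.001, and 566 and 871 of 8376 with 10 counts in every library. *Grm7* in dKO against ctrl changed sign in batch 2 alone (0.0904, adjusted p = 0.874). Lower calls over all genes in dKO against ctrl were 266 in the main fit and 118 with total counts. They were 36 with litter as a block and 289 in a fit over all libraries. In batch 1 and batch 2 alone they were 83 and 12, and without dKO E and G 165. With sex as a term they were 305, at 0.01 they were 603 and at 0.05 they were 1139. Calls over all genes moved too in cKO against ctrl, from 124 higher and 270 lower. They became 306 and 530 with the likelihood-ratio test and 224 and 494 with DESeq2. They were 160 and 198 with total counts and 131 and 235 with upper-quartile factors. With batch as a term they were 245 and 414, and with sex 166 and 292. At 0.01 they were 361 and 641, and at 0.05 they were 852 and 1152. In batch 2 alone they were 20 and 10, and without cKO D 87 and 197. With all genes that had a count they were 267 and 391 of 26102, with 43 receptor genes tested. With 10 counts in every library they were 100 and 256 of 8705, with 24 tested. The cause of these changes was not tested. With 1 embryo left out, counts ranged from 1 to 4 higher and 0 to 0 lower in cKO, 0 to 0 higher and 0 to 2 lower in dKO, and 1 to 2 higher and 19 to 22 lower in dKO against cKO.

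The labels give no meaning to the letters that name embryos, and they were not taken as pairs. Deviations of like-lettered embryos from their group means correlated between -0.413 and 0.176, and of the like-lettered ctrl and dKO embryos those named A and those named B were litter mates, with correlations of 0.176 and -0.413. With the replicate block 8 receptor genes were higher and 0 lower in cKO against ctrl, 0 higher and 0 lower in dKO against ctrl, and 1 higher and 21 lower in dKO against cKO. Over all genes the replicate block gave 132 higher and 209 lower in cKO against ctrl. In dKO it gave 1 and 36 against ctrl and 484 and 932 against cKO. Litter as a block could not be fitted for dKO against cKO, which share no litter. Depth limits genes near 3 counts per library, such as *Gabra5*, *Grin1* and *Grin3a*, and 15 of the 45 genes were too low to be tested.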
